A study of Mus musculus with 12 samples.

Results

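Mouse embryonic fibroblasts lacking HtrA2 were treated with rotenone or with vehicle, and the 2 treatments were compared over all probe sets of an expression array. The comparison used 6 of the 12 arrays of the series, 3 labelled HtrA2 KO with rotenone and 3 labelled HtrA2 KO with vehicle, chosen by their titles and paired by replicate number. Per the labels, these were primary cells derived from HtrA2 KO mice, taken at passage 4 and kept for 4 h in 1 µM rotenone or in vehicle. All 6 arrays therefore share the loss of HtrA2. The other 6 arrays are WT fibroblasts under the same treatments, 3 with rotenone and 3 with vehicle. They serve to ask where the KO response differs, and they also enter the shared fit that sets the spread for the HtrA2 KO tests. The sources used here do not give strain, embryo age, the number of embryos or what the vehicle was.

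HtrA2, also called Omi, is a mitochondrial serine protease that resides between the inner and outer membranes, where it takes part in protein quality control. Once released into the cytosol it binds inhibitors of apoptosis. Mice without its activity lose striatal neurons and show a parkinsonian movement disorder. Rotenone blocks electron transfer at respiratory complex I, and it also binds tubulin and hinders microtubule assembly. A block of respiration raises the demand on glycolysis and can engage the integrated stress response, in which phosphorylation of eIF2α slows general translation and raises the translation of the transcription factor ATF4.

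Levels are the deposited log2 values, and values of 3 arrays are given in the order of replicates 1, 2 and 3. Htra2 itself was checked first, on its brighter probe set. It read 7.66, 7.82 and 7.81 on the HtrA2 KO rotenone arrays and 7.57, 7.57 and 7.87 on the HtrA2 KO vehicle arrays, all 6 below the WT arrays, which lay at 9.09, 9.02 and 9.14 with rotenone and at 9.04, 8.83 and 9.32 with vehicle. Rotenone left no detectable difference in it in HtrA2 KO cells (0.09 ± 0.10 SE on the log2 scale, limma adjusted p = 0.857). A dimmer Htra2 probe set averaged 8.29 ± 0.16 in HtrA2 KO rotenone and 8.38 ± 0.15 in HtrA2 KO vehicle, against 8.06 ± 0.03 in WT rotenone and 7.98 ± 0.39 in WT vehicle (SD, n = 3 each), and so did not show the loss. The WT rotenone arrays carry a knockout entry in their genotype label but are WT by every other label, and on the brighter probe set they lay among the WT vehicle arrays.

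Array medians lay between 7.53 and 7.58. In every group the arrays of replicate 3 stood apart from those of replicates 1 and 2 on the first principal component (44.7% of the variance), so the fit carried the replicate number as a block. Of 15 genes that mark fibroblasts, none passed the test. Their estimates were not all near 0 and ran between -0.78 and 0.22, and with a block separate for each genotype 1 of them fell. The log2 of their summed linear values, which the brightest genes dominate, spanned 16.28 to 16.56 over the HtrA2 KO rotenone arrays. Over the HtrA2 KO vehicle arrays it spanned 16.29 to 16.56. Col1a1, a chain of type I collagen, averaged 13.74 with rotenone and 13.84 with vehicle. Some markers of other cells were dim, such as Ptprc of leukocytes at 5.21 with rotenone and 5.24 with vehicle. Pecam1 of endothelium was at 6.22 with either, and Cdh1 of epithelium at 3.86 with rotenone and 3.88 with vehicle. Others were brighter. Above the 40th percentile of level lay 6 of 13 measured markers of leukocytes, 4 of 11 of endothelium and 5 of 12 of epithelium. In the lists for leukocytes, epithelium, endothelium, muscle, fat, and cartilage and bone no member passed, and in the neural list the only one that did was the beta-tubulin Tubb3.

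In HtrA2 KO fibroblasts rotenone lowered the transcripts of Txnip and of 7 of 12 measured tubulins and raised those of 6 of 25 measured genes of the integrated stress response. Single genes of other groups also passed, among them Eno2, Slc2a1, Flcn, Atp6v1b2 and Gadd45a, which rose, and Hmgcs1, Gmppb, Arf2 and Jun, which fell. In limma, 68 of 22626 probe sets passed an adjusted p of 0.05 (0.301%), 26 higher (0.115%) and 42 lower (0.186%). With each gene represented by its brightest probe set, 41 of 12393 genes passed (0.331%), 20 higher with rotenone (0.161%) and 21 lower (0.169%). Their median absolute difference was 0.70 on the log2 scale, or 1.63-fold, and the smallest was 0.47. The median over all genes was 0.03, with the 5th percentile at -0.21 and the 95th at 0.22.

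All 41 genes moved the same way in all 3 pairs, as the plot of the pairs shows. In 30 of them the rotenone and vehicle arrays did not overlap, 12 higher and 18 lower, where 7.55% of all genes had the rotenone arrays above every vehicle array and 3.7% had them below. Pair 3 gave the smallest change for 25 of the 41 genes, pair 2 for 9 and pair 1 for 7. Without the block 2 probe sets passed, both of Txnip. Without replicate 3 the count was 343 probe sets and 40 of the 41 genes passed again, all but Slc2a1. Without replicate 1 it was 5 probe sets, with Txnip and Trib3 the genes among the 41 that still passed, and without replicate 2 it was 0. The count thus fell without replicate 1 or 2 and rose without replicate 3. With a block of its own for each genotype, the 41 genes passed again among 41 higher (0.331%) and 47 lower genes (0.379%).

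**Figure D1:**
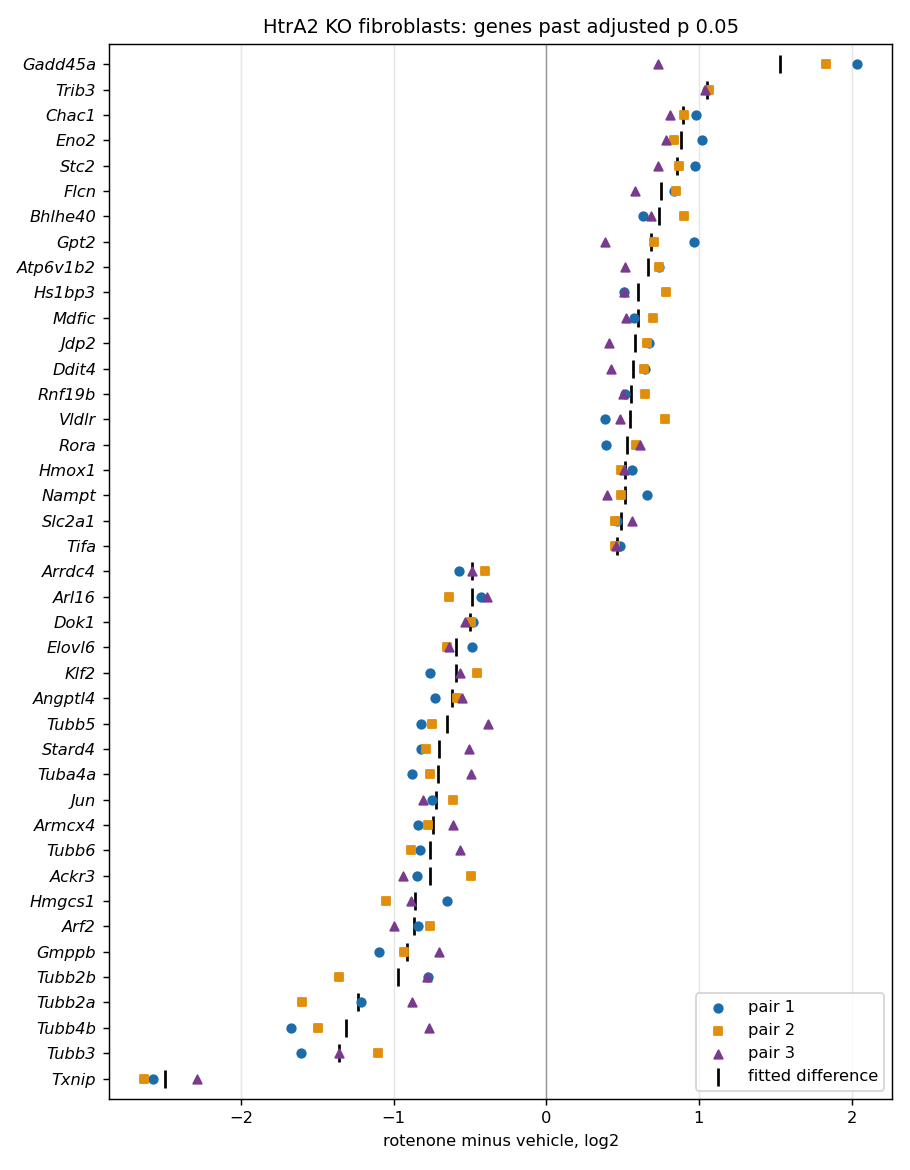
Rotenone minus vehicle on the log2 scale (horizontal axis) in HtrA2 KO fibroblasts for the 41 genes past an adjusted p of 0.05, 1 gene per line. Symbols are the 3 replicate pairs and the vertical tick is the fitted difference, which runs between -2.50 for Txnip and 1.53 for Gadd45a, with all 3 pairs of every gene on one side of 0.

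Txnip had the largest difference of any gene on the arrays. Its product is an alpha-arrestin that binds thioredoxin and draws glucose transporters off the cell surface, and its transcription follows glucose metabolites through the factors MondoA and ChREBP. Txnip read 8.06, 7.97 and 7.58 on the HtrA2 KO rotenone arrays, against 10.63, 10.61 and 9.87 on the HtrA2 KO vehicle arrays. Every rotenone array lay more than 1 log2 unit below every vehicle array. It fell by 2.50 ± 0.24 (SE) on the log2 scale, 5.65-fold, with a limma adjusted p of 0.000262, and the pair differences were -2.57, -2.63 and -2.29. A second Txnip probe set fell by 1.98 (adjusted p = 8.91e-05).

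The promoter of Txnip is shown because its paired motif, the carbohydrate response element, is the best known route by which glucose sets its transcription. Promoter windows came from RefSeq (GRCm38.p6), 250 bases before to 50 after a gene's start, and were held for 32 of the 41 genes, 17 that rose and 15 that fell. In the Txnip window, 2 copies of the 6-letter box CACGNG stand 5 bases apart. This pairing was looked for after the expression values had been seen, on both strands, and it occurs in the windows of 15 of 27025 genes (0.0555%), Txnip alone among the 32. The stretch below lies at chr3:96557850-96557909 on the plus strand, with both boxes and the bases between them in capitals.
Txnip: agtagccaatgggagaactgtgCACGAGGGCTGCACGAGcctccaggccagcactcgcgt

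Arrdc4, the closest relative of Txnip among the alpha-arrestins and a gene with the same glucose regulation, was the other member of its list to fall. It read 6.99, 7.10 and 7.12 with rotenone, against 7.56, 7.49 and 7.60 with vehicle, so the groups did not overlap. The fitted fall was 0.48 ± 0.09 (SE) with an adjusted p of 0.0422, and a second probe set fell by 0.96 (adjusted p = 0.00235). Of the 9 measured genes of the alpha-arrestin and carbohydrate response list, 2 fell and none rose, against 0.169% of all genes that fell. The median difference was 0.01. The factors that act on both genes did not pass, with Mlx at -0.01, Mlxip, which encodes MondoA, at -0.14 and Mlxipl, which encodes ChREBP, at 0.10.

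Tubulins made the largest group of genes that fell. Alpha- and beta-tubulin pair into the dimers that build microtubules, and their messenger RNAs are known to be degraded on the ribosome when the pool of free dimers grows. Of 12 measured tubulin genes, 7 fell and none rose, against 0.169% of all genes that fell. The list median was -0.70 on the log2 scale, where the median of all genes was 0.03, and the pair medians were -0.82, -0.77 and -0.44. In 9 of the 12 genes every rotenone array lay below every vehicle array, where 3.7% of all genes did.

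Tubb3, the class III beta-tubulin best known in neurons, read 6.34, 6.91 and 7.27 with rotenone, against 7.95, 8.01 and 8.63 with vehicle. The highest rotenone array was below the lowest vehicle array, and the fall was 1.36 ± 0.16 (SE), 2.56-fold, with an adjusted p of 0.00159 (limma). Tubb4b read 9.63, 9.82 and 10.91 with rotenone, against 11.31, 11.32 and 11.68 with vehicle. These groups also stood apart, and Tubb4b fell by 1.31 ± 0.16 (2.48-fold, adjusted p = 0.0016), with replicate 3 the smallest pair difference at -0.77. Tubb2a had 9.04, 9.02 and 9.24 with rotenone, against 10.25, 10.62 and 10.12 with vehicle. It too did not overlap, and it fell by 1.23 ± 0.16 (2.35-fold, adjusted p = 0.00288).

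The other beta-tubulins that passed were Tubb2b, which fell by 0.97, Tubb6, which fell by 0.76, and Tubb5, the main beta-tubulin of dividing cells, which fell by 0.65. Tubb5 read 12.53, 12.56 and 13.24 with rotenone, against 13.35, 13.30 and 13.63 with vehicle, a narrow gap between the groups. One alpha-tubulin passed, Tuba4a, which fell by 0.71 ± 0.11 (adjusted p = 0.00735), while its other probe sets were at -0.55 (adjusted p = 0.0608) and -0.02 and did not pass. Tuba1a, another alpha-tubulin, stayed outside the threshold at -0.68 (adjusted p = 0.103), although its arrays did not overlap, with 12.09, 12.20 and 12.81 on rotenone against 13.05, 12.99 and 13.11 on vehicle. The remaining 4 members that did not pass were Tubg1, the gamma-tubulin of microtubule-organising centres, at -0.30, Tuba8 at -0.14, Tubd1, a delta-tubulin of centrioles, at -0.07, and Tubb4a at 0.12.

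Tubulin paralogs are close in sequence, so a probe set may take signal from several of them and the assignment to single genes is uncertain. The 5 other Tubb4b probe sets lay between -0.11 and 0.08, and none passed. With all probe sets of a gene averaged, Tubb4b, Tubb5 and Tuba4a did not pass. A second Tubb2a probe set was at -0.38 and a second Tubb5 probe set at -0.24, neither past the threshold. The folding machinery did not move with its clients. Of 18 measured genes for tubulin folding cofactors, prefoldin and the CCT chaperonin none passed and the median was -0.01, and of 17 genes for microtubule-associated proteins and stathmins none passed and the median was 0.06.

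**Figure D2:**
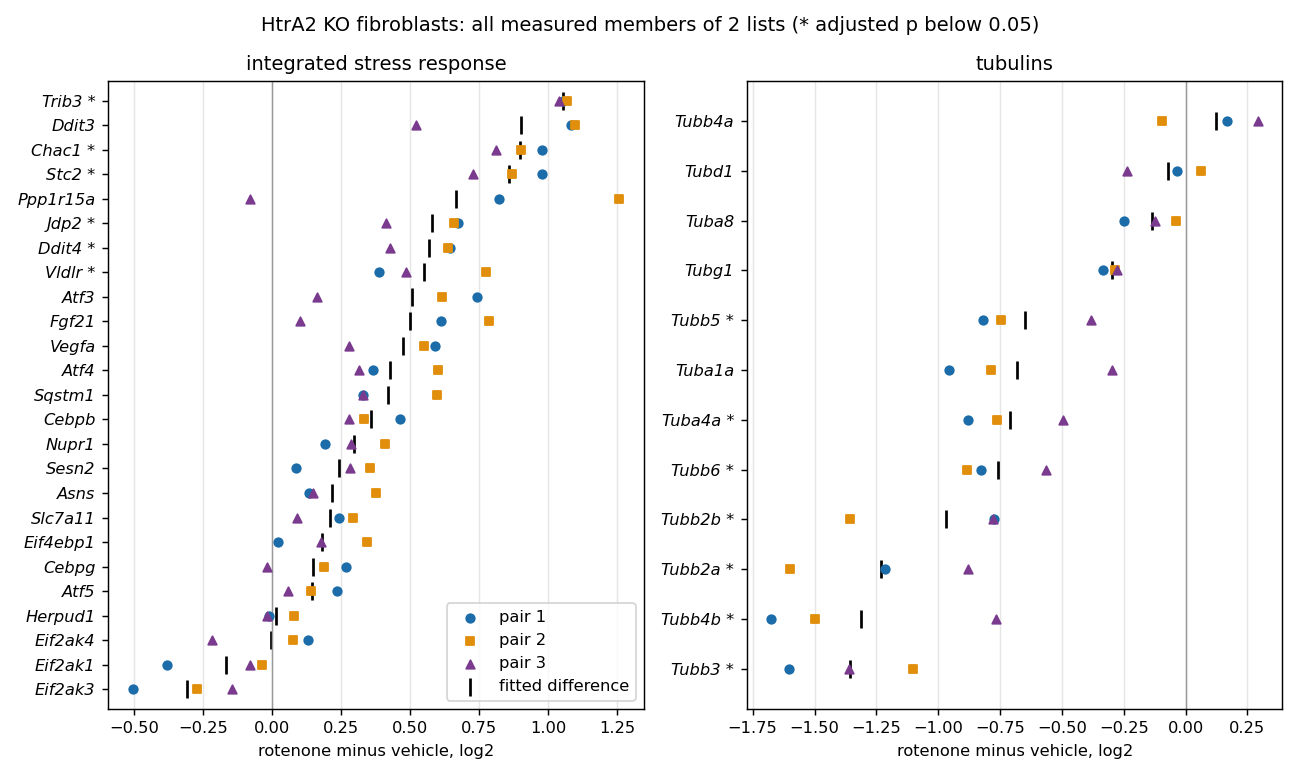
Rotenone minus vehicle on the log2 scale (horizontal axes) in HtrA2 KO fibroblasts for all 25 measured genes of the integrated stress response list (left) and all 12 measured tubulins (right). Symbols are the 3 replicate pairs, ticks the fitted differences and asterisks an adjusted p below 0.05, which marks 6 stress genes above 0 and 7 tubulins below 0.

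The integrated stress response gave the largest group of genes that rose. Of 25 measured members 6 rose and none fell, against 0.161% of all genes that rose, and 22 had a positive estimate. The median difference was 0.42 on the log2 scale, against 0.03 for all genes, and the pair medians were 0.37, 0.55 and 0.28. Trib3, a pseudokinase induced by ATF4 and CHOP that feeds back on the pathway, read 10.60, 10.51 and 8.94 with rotenone, against 9.55, 9.44 and 7.90 with vehicle. The replicate 3 arrays were the lowest of both treatments, so the groups overlapped, yet the pair differences were 1.06, 1.07 and 1.04. The fitted rise was 1.05 ± 0.09 (SE), 2.08-fold, with an adjusted p of 8.91e-05 (limma).

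Chac1, which degrades glutathione, read 10.81, 10.66 and 9.68 with rotenone, against 9.83, 9.76 and 8.87 with vehicle. The lower replicate 3 again made the groups overlap, and Chac1 rose by 0.90 ± 0.13 (adjusted p = 0.00436) with pair differences of 0.98, 0.90 and 0.81. Stc2, the secreted glycoprotein stanniocalcin 2, read 8.20, 7.81 and 8.06 with rotenone, against 7.22, 6.94 and 7.33 with vehicle. Here every rotenone array was above every vehicle array, and Stc2 rose by 0.86 ± 0.14 (adjusted p = 0.0149), while a second Stc2 probe set at 0.23 did not pass. The other members that rose were Jdp2, an AP-1 family repressor, by 0.58, Ddit4, an inhibitor of mTORC1 also known as REDD1, by 0.57, and Vldlr, a lipoprotein receptor, by 0.55. Of these, only Vldlr had overlapping groups. A second Jdp2 probe set was at 0.10, and the mean of both, 0.34, did not pass (adjusted p = 0.128). The 3 other Vldlr probe sets, at 0.41, 0.12 and 0.12, did not pass either, and neither Vldlr nor Stc2 passed with its probe sets averaged.

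Ddit3, which encodes the transcription factor CHOP, just missed the threshold. It read 11.59, 11.59 and 9.47 with rotenone, against 10.50, 10.49 and 8.95 with vehicle, a difference of 0.90 ± 0.18 (SE) with an adjusted p of 0.0556 and a smaller change in pair 3, at 0.52. Atf4 itself was at 0.43 (adjusted p = 0.163) and Asns, the ATF4 target asparagine synthetase, at 0.22. In 19 of the 25 members all 3 pairs were higher with rotenone, where 6 passed. Over all 12393 genes, 2695 were higher in all 3 pairs.

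A composite motif to which ATF4 and C/EBP factors bind as a dimer, searched as TGATGNAA on both strands, was found in the windows of 6 of the 32 genes (18.8%) and of 4.51% of all 27025 genes. It lay in 5 windows of genes that rose (Trib3, Chac1, Mdfic, Jdp2 and Vldlr) and in 1 of a gene that fell (Tubb3). The stretches of 4 genes that rose and of Tubb3 are set side by side so that the match can be read on either strand. They lie at chr2:152344028-152344057 on the minus strand for Trib3, and on the plus strand at chr2:119351023-119351082 for Chac1, chr12:85599356-85599415 for Jdp2, chr19:27216794-27216853 for Vldlr and chr8:123411465-123411524 for Tubb3, with the match in capitals.
Trib3: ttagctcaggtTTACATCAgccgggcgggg
Chac1: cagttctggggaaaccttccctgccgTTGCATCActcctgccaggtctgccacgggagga
Jdp2: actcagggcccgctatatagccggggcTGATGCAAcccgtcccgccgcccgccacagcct
Vldlr: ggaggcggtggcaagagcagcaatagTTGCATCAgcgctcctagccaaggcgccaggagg
Tubb3: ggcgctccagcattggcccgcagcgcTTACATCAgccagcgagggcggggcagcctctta

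Among enzymes and transporters of amino acid supply, many of them ATF4 targets, 1 gene passed. Of 13 measured genes for serine, one-carbon, proline and transaminase enzymes 1 rose and none fell, all 13 had positive estimates, and the median was 0.19. In 5 of the 13 every rotenone array lay above every vehicle array, where 7.55% of all genes did. The one that rose was Gpt2, the mitochondrial alanine aminotransferase. It read 8.79, 8.81 and 7.77 with rotenone, against 7.82, 8.10 and 7.38 with vehicle, a rise of 0.69 ± 0.11 (adjusted p = 0.0149) that shrank to 0.39 in pair 3 and whose groups overlapped. Its other probe sets, at 0.65 and 0.43, did not pass. Cth, an enzyme of cysteine synthesis, was at 0.47, Mthfd2, a mitochondrial one-carbon enzyme, at 0.37 and Psph, of serine synthesis, at 0.36, none past the threshold. Of 12 amino acid transporters none passed (median 0.21, highest Slc3a2 at 0.42), and of 18 cytosolic tRNA synthetases none passed (median 0.08).

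The lists of glucose handling and of hypoxia targets each had 2 genes that rose, and Eno2, which hypoxia is also known to induce, was counted only in the first. Eno2, the enolase isoform best known in neurons, read 7.69, 7.90 and 7.35 with rotenone, against 6.67, 7.06 and 6.57 with vehicle. The groups did not overlap, and Eno2 rose by 0.88 ± 0.11 (SE), 1.84-fold, with an adjusted p of 0.00212 (limma). Slc2a1, the glucose transporter GLUT1, read 10.40, 10.31 and 10.59 with rotenone, against 9.94, 9.86 and 10.03 with vehicle. It rose by 0.49 ± 0.09 (adjusted p = 0.0422), again with no overlap, and a second probe set rose by 0.57, while the remaining one at 0.38 did not pass. Of the 19 measured genes of glycolysis and glucose transport these 2 rose and none fell, against 0.161% of all genes that rose. The list median was 0.10. Hk2, a hexokinase, was at 0.49 (adjusted p = 0.18), and the lactate dehydrogenase gene Ldha was at -0.05.

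Of the 21 measured genes of the hypoxia list, Bhlhe40 and Ddit4 rose and none fell, against 0.161% of all genes that rose. Both were also counted in other lists, Ddit4 in the integrated stress response and Bhlhe40 in the clock list. The list median was 0.12. The list left out Slc2a1, which rose, and Angptl4, which fell by 0.62. Bhlhe40, a transcriptional repressor that also acts in the circadian clock, read 10.47, 10.69 and 9.65 with rotenone, against 9.84, 9.79 and 8.96 with vehicle. Replicate 3 was low in both treatments and made the groups overlap, and Bhlhe40 rose by 0.74 ± 0.10 (adjusted p = 0.00418) with pair differences of 0.63, 0.90 and 0.68. Bnip3, a mitophagy receptor, was at 0.69 (adjusted p = 0.0816), with a pair 3 difference of 1.16 against 0.44 and 0.48 in pairs 1 and 2. Vegfa, the vascular growth factor, was at 0.47. Among 20 clock genes Bhlhe40 rose and so did Rora, an orphan nuclear receptor that drives Bmal1, by 0.53 ± 0.09 (adjusted p = 0.0149), with its 2 other probe sets at 0.41 and 0.28 not passing.

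Flcn rose. It encodes folliculin, which acts with Rag GTPases on the lysosome and controls the factors TFEB and TFE3. Flcn read 9.57, 9.65 and 9.20 with rotenone, against 8.74, 8.80 and 8.62 with vehicle. All rotenone arrays were above all vehicle arrays, Flcn rose by 0.75 ± 0.10 (SE) with an adjusted p of 0.00288 (limma), and its 2 other probe sets rose by 0.91 and 0.60. With Ddit4 it made up the 2 genes that rose among 24 measured regulators of mTORC1, against 0.161% of all genes that rose. The list median was -0.01, and Ddit4 was counted in the stress response and hypoxia lists as well. Rragc, which encodes the Rag GTPase RagC, was at 0.43 (adjusted p = 0.11).

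Atp6v1b2, the B2 subunit of the pump's catalytic sector, read 10.89, 10.93 and 10.41 with rotenone, against 10.15, 10.19 and 9.89 with vehicle. The groups stood apart, and it rose by 0.66 ± 0.11 (adjusted p = 0.0163), as did a second probe set by 0.77, while the remaining one was at 0.09 (adjusted p = 0.872). It was the only one of 15 pump genes to pass, where 0.161% of all genes rose. The list median was 0.19 with 12 positive estimates, and Atp6v1c1, the C1 subunit of the same sector, was next at 0.51 (adjusted p = 0.0832). Of 26 lysosomal hydrolases and membrane proteins none passed, with a median of 0.09 and the sialidase gene Neu1 highest at 0.62 (adjusted p = 0.134). Of 24 autophagy genes none passed. The palindrome TCACGTGA, which TFEB and TFE3 bind, was found in the promoter windows of none of the 32 genes and of 1.12% of all 27025 genes.

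Among genes of sterol synthesis Hmgcs1 and Stard4 fell. The SREBP2 list covers the cholesterol pathway and the genes that the sterol-sensing factor SREBP2 controls. Of its 19 measured genes 2 fell and none rose, against 0.169% of all genes that fell. Negative estimates were found for 18, and the median was -0.25. In 7 of the 19 the rotenone arrays lay below all vehicle arrays, where 3.7% of all genes did. Hmgcs1, the HMG-CoA synthase that feeds cholesterol synthesis, read 10.12, 10.15 and 10.07 with rotenone, against 10.76, 11.20 and 10.95 with vehicle. The groups were well apart, with an SD of 0.04 on the rotenone arrays and 0.22 on the vehicle arrays. The shared spread also drew on the WT arrays, where the pair differences were -1.17, -1.08 and -0.17. Hmgcs1 fell by 0.86 ± 0.17 (SE) in HtrA2 KO cells with an adjusted p of 0.0477 (limma). Its 3 other probe sets lay between -0.83 and -0.67 and did not pass, nor did Hmgcs1 pass after quantile normalization.

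Stard4, a sterol transfer protein, read 7.58, 7.51 and 8.23 with rotenone, against 8.39, 8.30 and 8.74 with vehicle, a small gap between the groups and a fall of 0.70 ± 0.13 (adjusted p = 0.0316). Its second probe set was at -0.62 and did not pass. Idi1, isopentenyl diphosphate isomerase, was at -0.75 without passing (adjusted p = 0.0798), and Sqle, squalene epoxidase, at -0.42. Of 15 genes of fatty acid synthesis, Elovl6, which extends palmitate, fell by 0.59 ± 0.10 (adjusted p = 0.0156), and its second probe set fell by 0.80. The list median was -0.08, and Fasn, fatty acid synthase, was at -0.50 (adjusted p = 0.29). A sterol response element, searched as TCACNCCAC on both strands, was found in the windows of 1 of the 32 genes and of 1.44% of all 27025 genes. It lies in the Hmgcs1 window at chr13:119690188-119690247 on the plus strand, shown with the match in capitals.
Hmgcs1: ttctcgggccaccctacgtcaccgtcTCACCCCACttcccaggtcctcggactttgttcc

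In the secretory pathway Gmppb and Arf2 fell. Gmppb, the catalytic subunit that makes GDP-mannose for glycosylation, read 8.70, 8.84 and 8.50 with rotenone, against 9.80, 9.78 and 9.21 with vehicle. The highest rotenone array was below the lowest vehicle array, and Gmppb fell by 0.91 ± 0.11 (SE), 1.88-fold, with an adjusted p of 0.00179 (limma). It was the only one of 15 measured genes for GDP-mannose and N-glycan precursors to pass, and the list median was -0.16 with 12 negative estimates. In 5 of the 15 the rotenone arrays lay below all vehicle arrays, where 3.7% of all genes did. Arf2, a small GTPase of Golgi traffic, read 7.74, 7.98 and 7.40 with rotenone, against 8.58, 8.74 and 8.40 with vehicle. It did not overlap and fell by 0.87 ± 0.11 (adjusted p = 0.00179), with 2 further probe sets falling by 0.75 and 1.20 and the remaining one at -0.49 not passing. None of the other 17 genes of its list passed, the closest being Arfgap1, which stimulates GTP hydrolysis on ARF proteins, at -0.43 (adjusted p = 0.09). The median of the 18 was -0.15, with 15 negative estimates, and in 7 the rotenone arrays lay below all vehicle arrays.

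Among stress and growth regulators Gadd45a had the largest rise of any gene that passed. Its product is induced by DNA damage, p53 and ATF4 and slows the cell cycle. Gadd45a read 9.31, 9.09 and 7.12 with rotenone, against 7.27, 7.26 and 6.38 with vehicle. The rotenone array of replicate 3 lay below 2 vehicle arrays, and the pair differences of 2.03, 1.83 and 0.73 were the most uneven of the genes that rose. The fitted rise was 1.53 ± 0.28 (2.89-fold, adjusted p = 0.0355), and it did not pass with quantile normalization or with a trended, robust estimate of the spread. No other of the 20 measured p53 targets and GADD45 genes passed, and Cdkn1a, the p53 target p21, was at -0.12.

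Jun, an AP-1 subunit, read 9.47, 9.61 and 9.63 with rotenone, against 10.22, 10.22 and 10.44 with vehicle. The groups were well separated, and Jun fell by 0.72 ± 0.10 (adjusted p = 0.00288), as did a second probe set by 0.78. Klf2, a zinc-finger factor of the same list of 31 immediate early genes, fell by 0.59 ± 0.10 (adjusted p = 0.0149), and Fos was at -0.35 without passing. Hmox1, the haem oxygenase induced by NRF2 and other stress factors, rose by 0.52 ± 0.09 (adjusted p = 0.0215), with overlapping groups and pair differences of 0.56, 0.49 and 0.51. It was the only one of 21 NRF2 and antioxidant genes to pass, and the list median was 0.01.

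No respiratory chain gene passed in HtrA2 KO cells. Of 33 complex I subunit genes, which encode parts of the enzyme that rotenone blocks, none passed, the estimates lay between -0.16 for Ndufs3 and 0.10 for Ndufc2, and the median was -0.03, with 20 negative estimates. Of 37 genes for complexes II to V none passed, with a median of -0.04. Of these, 29 had negative estimates, so 21.6% of the estimates were positive, against 59.0% over all genes. In 11 of the 37 all 3 pairs were lower, as they were in 1820 of all 12393 genes. None of 19 mitochondrial chaperones and proteases, 22 apoptosis regulators and HtrA2 partners, 13 Parkinson disease and mitophagy genes or 27 ER chaperones passed either. Park7, which encodes the oxidative stress protein DJ-1, was at -0.10, and Lonp1, the matrix protease, at 0.19. The plot of 15 lists sets these beside the groups that moved.

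**Figure D3:**
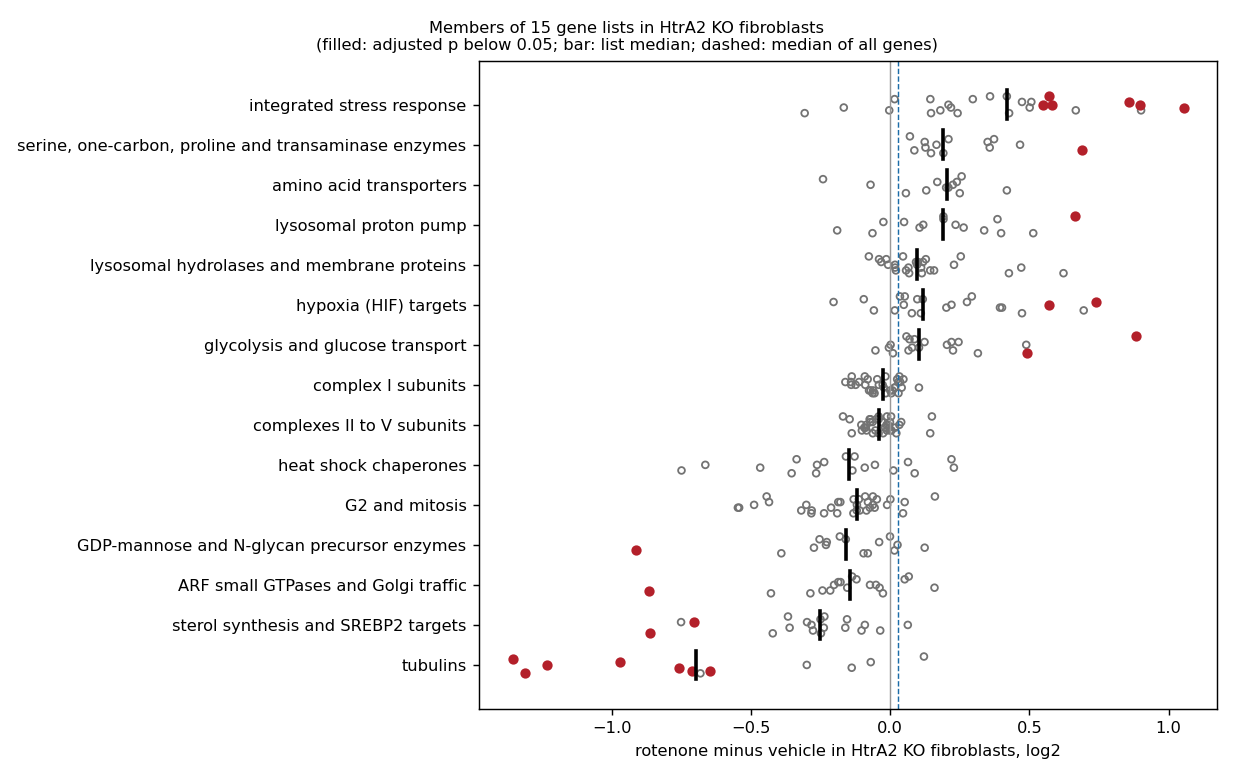
Rotenone minus vehicle on the log2 scale (horizontal axis) in HtrA2 KO fibroblasts for the measured members of 15 gene lists, 1 list per line. Each circle is a gene, filled where the adjusted p was below 0.05, the thick bar is the list median and the dashed line the median of all genes, 0.03. The list medians run between -0.70 for tubulins and 0.42 for the integrated stress response.

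Of the 18 heat shock chaperone genes none passed by its brightest probe set, and 13 estimates were negative, with a median of -0.15. Hspa1b, an inducible HSP70, was the closest at -0.75 (adjusted p = 0.0507), reading 9.49, 9.40 and 10.46 with rotenone, against 10.32, 10.42 and 10.86 with vehicle. Its 2 dimmer probe sets passed and fell by 0.93 and 0.96. Of 33 genes of G2 and mitosis none passed, 29 estimates were negative and the median was -0.12, and of 28 genes of DNA replication and G1/S none passed. In extracts of whole cultures fewer cells of a kind and less RNA per cell cannot be told apart.

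Of the 41 genes, 10 belonged to no list. Among those within the 15 largest rises, Hs1bp3 rose by 0.60, Mdfic, an inhibitor of MyoD-family factors, by 0.60, and Rnf19b, a ubiquitin ligase, by 0.56. Among the 15 largest falls, Ackr3, the chemokine receptor also called CXCR7, fell by 0.76 and Armcx4 by 0.74, both with overlapping groups and Ackr3 on a dim probe set. Nampt, which makes NAD from nicotinamide, rose by 0.52 with overlapping groups, and Tifa, an adaptor in NF-kB signalling, by 0.47. Angptl4, a secreted inhibitor of lipoprotein lipase, fell by 0.62, also with overlapping groups. Dok1, a docking protein of tyrosine kinases, fell by 0.50 and Arl16, an ARF-like GTPase, by 0.49. These last 5 genes were chosen after their values were seen. Second probe sets of Hs1bp3, Rnf19b, Nampt, Angptl4 and Arl16, at 0.33, 0.64, 0.24, -0.10 and -0.19 in that order, did not pass.

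**Figure D4:**
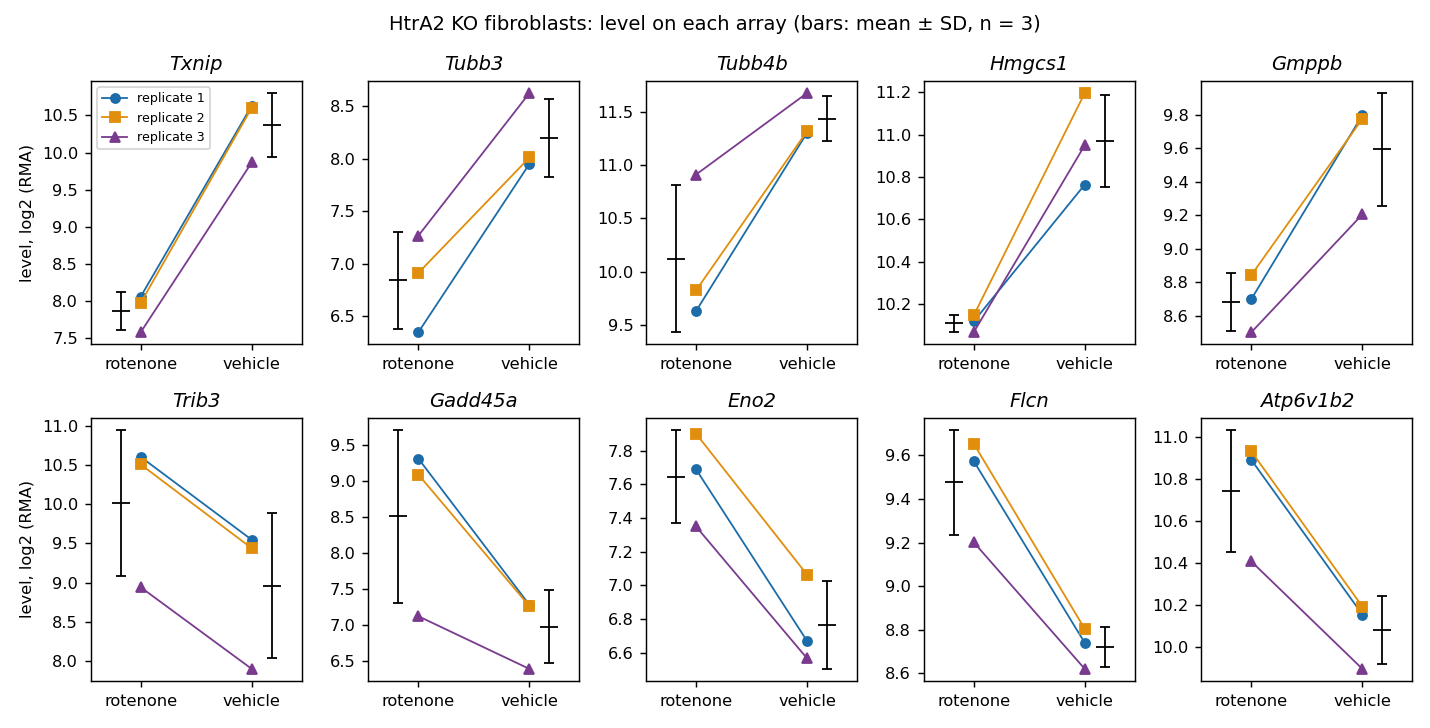
Deposited log2 level (vertical axes, a separate scale for each gene) on every HtrA2 KO array for 10 genes that passed, with rotenone on the left and vehicle on the right of each panel. Lines join arrays of the same replicate number and bars beside them are the mean ± SD of 3 arrays. Txnip, Tubb3, Tubb4b, Hmgcs1 and Gmppb (top) were lower with rotenone in each pair, and Trib3, Gadd45a, Eno2, Flcn and Atp6v1b2 (bottom) were higher. Replicate 3 was the lowest of both treatments for Txnip and Gmppb and for the 5 genes that rose.

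The study set out to find genes whose response to rotenone depends on HtrA2, which the difference between the rotenone effects in HtrA2 KO and in WT cells addresses. No gene met that test. In limma 0 of 22626 probe sets passed an adjusted p of 0.05 for the difference (0%), and the smallest adjusted p was 0.9998. An unadjusted p below 0.05 was found for 295, where 1131 would be expected if no gene differed. With so few small p-values the test was conservative here, so its lack of calls does not show that the genotypes respond alike. No adjusted call appeared under any alternative for which the difference was fitted. The 95% interval of the difference had a median half-width of 0.31 on the log2 scale over all genes, so for a gene of typical spread a difference below that size lay within the error.

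Of the 41 genes that passed in HtrA2 KO cells, 34 also passed in WT cells in the same direction (82.9%), where 0.702% of all genes passed. These 34 are 39.1% of the 87 genes that passed in WT cells. Both tests used the same estimate of spread for a probe set, so they are not independent and the overlap may be raised by that. All 41 moved in the same direction in all 3 WT pairs. The HtrA2 KO effect minus the WT effect lay between -0.35 and 0.28 for these genes, and it was the larger in size in HtrA2 KO cells for 21 of them. Txnip was -2.50 in HtrA2 KO and -2.33 in WT, a difference of -0.17 with a 95% interval of -0.89 to 0.55. Trib3 was 1.05 in HtrA2 KO and 1.12 in WT, a difference of -0.07 (-0.33 to 0.19), and Tubb3 was -1.36 in HtrA2 KO and -1.38 in WT, a difference of 0.03 (-0.45 to 0.51).

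The 7 genes that passed in HtrA2 KO but not in WT were Stc2, Jdp2, Arl16, Angptl4, Tubb5, Armcx4 and Ackr3. Stc2 rose by 0.86 in HtrA2 KO and was at 0.57 in WT (adjusted p = 0.105), a difference of 0.28 with a 95% interval of -0.15 to 0.71. Armcx4 and Ackr3 had the most negative differences, each -0.35, with intervals of -0.77 to 0.06 and -0.80 to 0.10. Angptl4 was -0.62 in HtrA2 KO and -0.30 in WT, a difference of -0.32 (-0.62 to -0.01), the only one of the 41 with an unadjusted p below 0.05, at 0.0448, and it did not hold after adjustment. None of the 7 was thus shown to differ between genotypes.

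**Figure D5:**
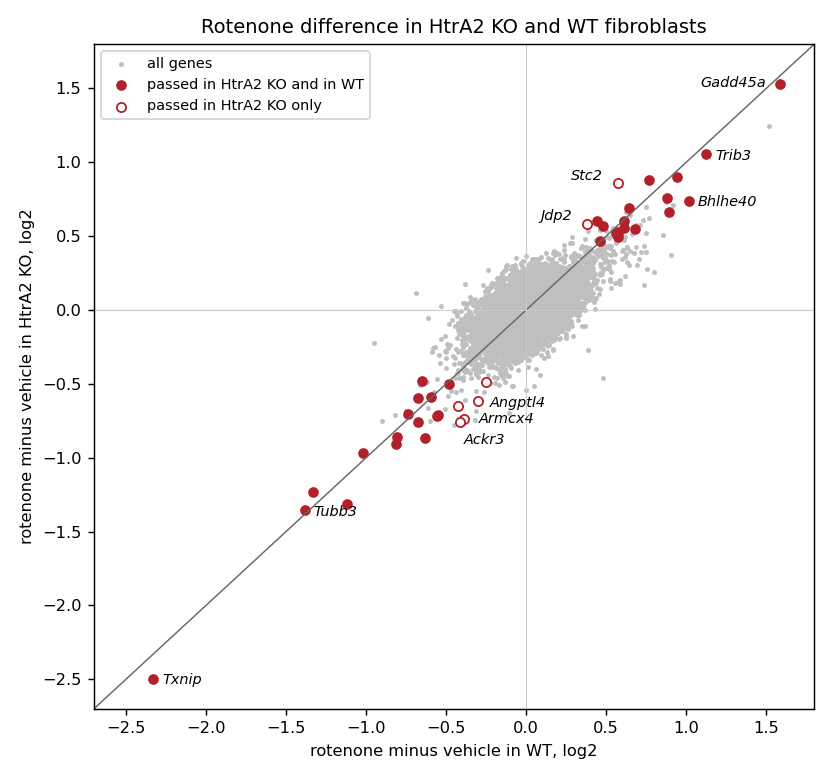
Rotenone minus vehicle on the log2 scale in HtrA2 KO fibroblasts (vertical axis) and in WT fibroblasts (horizontal axis), 1 point per gene, with the line of equal effects. Grey points are all 12393 genes, filled points the 34 genes past an adjusted p of 0.05 in both genotypes and open points the 7 past it in HtrA2 KO but not in WT, which lie within 0.35 of the line.

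A further 53 genes passed in WT and not in HtrA2 KO cells, and for 52 of them all 3 HtrA2 KO pairs had the WT sign. Of the 53, 5 had an unadjusted p below 0.05 for the difference between genotypes, and none held after adjustment. Ddit3 was at 0.90 in HtrA2 KO and 0.94 in WT, Tuba1a at -0.68 in HtrA2 KO and -0.75 in WT, and Atp6v1c1 at 0.51 in HtrA2 KO and 0.66 in WT. The 5 were picked by that p after their values were seen. Ctnnd1, which encodes the catenin p120 of cell junctions, was the one gene without the WT sign. It was at 0.02 in HtrA2 KO and -0.53 in WT, a difference of 0.56 with a 95% interval of 0.22 to 0.89 and an unadjusted p of 0.00288. Parp8, of the PARP family, was at 0.17 in HtrA2 KO and 0.73 in WT (unadjusted p = 0.0105). Gdap10 was at 0.28 in HtrA2 KO and 0.76 in WT, Tiparp, another PARP family member, at 0.30 in HtrA2 KO and 0.69 in WT, and Zbtb21, a zinc-finger protein, at 0.32 in HtrA2 KO and 0.63 in WT. Complex I genes had a median of -0.03 in HtrA2 KO and -0.21 in WT, and complexes II to V one of -0.04 in HtrA2 KO and -0.15 in WT, differences between lists that were not tested.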

How the data were processed

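Total RNA of the 12 samples was labelled with biotin and hybridised to Affymetrix arrays, per the labels' protocols. The deposited values are log2 levels that the authors made with RMA, per the submitters' processing notes, which give no version. RMA equalises the distributions of arrays, which hides a shift shared by most transcripts, and it compresses differences near background. No detection calls were used, so presence above background is not known. Precision is limited by the number of arrays, 3 per group. Tests covered 22626 probe sets, without the 64 array controls. Of these, 20380 had 1 symbol in the platform annotation, 691 had several and 1555 had none. With 1 symbol, 20351 matched the RefSeq table (GRCm38.p6). Each of 12393 genes was represented by its brightest probe set over the 12 arrays.

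Group means and the replicate number as a block were fitted to all 12 arrays with limma 3.58.1 in R 4.3.3 (two-sided, 6 residual degrees of freedom), with Benjamini-Hochberg adjustment over the 22626 probe sets and a threshold of 0.05. The fit was tested on simulated data. The pairing was checked from deviations from group means. Same-numbered HtrA2 KO arrays correlated at 0.533, 0.554 and 0.829, while arrays numbered 1 and 2 also correlated with each other (0.335 and 0.476). Arrays were paired by their shared number, and the labels do not say what a number marks. By their values the arrays numbered 3 were distinct, whereas pairs 1 and 2 were hardly told from each other. Whether replicates came from separate embryos or cultures is not stated, so p-values reflect only how far these samples varied, possibly for technical reasons.

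Named genes are the 15 largest rises and the 15 largest falls past the threshold with all 3 pairs in one direction, genes whose effect differed between genotypes, members of 46 gene lists (866 of 960 entries measured, 832 distinct genes), and Htra2. The lists and comparisons were chosen with earlier results of these data known. List medians and counts carry no test of their own. The WT arrays served for the WT effect and for the difference between genotypes. Through the shared fit they also shaped the spread and the replicate block behind the HtrA2 KO p-values.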

Additional observations from a re-analysis of the deposited data

How the results depend on the processing

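None of the 41 genes called in HtrA2 KO cells changed direction under the 13 alternatives, and the count of 0 for the difference between genotypes held in each alternative for which it was fitted. The number of calls did depend on the model of the pairs. Against 68 probe sets for HtrA2 KO with a shared replicate block, 2 passed with no replicate block, 166 with a block separate for each genotype, and 404 when the HtrA2 KO arrays were fitted alone. In the last 2 settings all 41 genes passed again. Without 1 replicate number in turn the count ran between 0 and 343 (lowest without replicate 2, highest without replicate 3), and without 1 HtrA2 KO replicate between 4 (replicate 1) and 150 (replicate 3). In WT cells 142 probe sets passed, 3 with no replicate block, and 0 to 370 without 1 replicate number. Quantile normalization gave 64, a filter at the 40th percentile of level 64, and a trended robust spread 74. With the mean of all probe sets of a gene 28 genes passed in place of 41, and 26 of these were among the 41, while Ackr3, Angptl4, Arl16, Gadd45a, Hmgcs1, Hs1bp3, Jdp2, Nampt, Rnf19b, Rora, Stc2, Tuba4a, Tubb4b, Tubb5 and Vldlr did not pass. Of the genes that did not pass, Ackr3 and Gadd45a have 1 probe set each, so the averaging left their own values unchanged. Txnip passed in 12 of 13 alternatives, failing without replicate 2 (adjusted p = 0.117). Signal over background is unknown, so dim probe sets such as that of Ackr3 are the least certain. The cause of these shifts was not tested.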

Other observations

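Apart from the brightest probe set of each gene, 9 probe sets of 8 other genes passed in HtrA2 KO cells by a dimmer probe set, all lower with rotenone, and they were picked by that result. They include 2 serine- and arginine-rich splicing factors. Srsf2 read 8.51, 7.85 and 8.63 on one probe set with rotenone, against 9.09, 8.66 and 9.26 with vehicle, and fell by 0.67 ± 0.10 (SE, limma adjusted p = 0.00735). In WT cells the same probe set was at -0.19, and the HtrA2 KO effect minus the WT effect was -0.49 with a 95% interval of -0.78 to -0.19 (unadjusted p = 0.00362, which did not hold after adjustment). Srsf3 averaged 6.47 ± 0.22 with rotenone and 7.17 ± 0.15 with vehicle (SD, n = 3 each) and fell by 0.70 ± 0.12 (adjusted p = 0.0226). In both genes the HtrA2 KO rotenone arrays lay below all vehicle arrays. The others were Far1, which makes fatty alcohols for ether lipids and fell by 0.85, Fzd2, a Wnt receptor, by 0.63, Tnrc6a, a partner of Argonaute in microRNA silencing, by 0.55, Mycbp by 0.51, Cdk7, a kinase of the general transcription machinery, by 0.48, and the 2 Hspa1b probe sets. Their genes' brighter probe sets did not pass.

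Shorter promoter motifs were also counted in the windows of the 32 genes. The box CACGTG was found in 3 (9.38%), Arrdc4, Tubb5 and Armcx4, and in 8.09% of all 27025 genes. The hypoxia core ACGTG, which is contained in CACGTG, was found in 10 (31.2%) and in 21.8% of all genes. It matched in 6 of the 17 genes that rose, Jdp2, Ddit4, Rora, Nampt, Slc2a1 and Tifa. It also matched in 4 of the 15 that fell, Arrdc4, Elovl6, Tubb5 and Armcx4.

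Ch25h, which makes the oxysterol 25-hydroxycholesterol, had one of the larger estimates in HtrA2 KO cells without passing and was singled out for that. It read 10.76, 10.67 and 9.07 with rotenone, against 9.04, 8.91 and 8.81 with vehicle, a difference of 1.25 ± 0.35 (SE) with an adjusted p of 0.212. All rotenone arrays were above all vehicle arrays, but the gap in pair 3 was small.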
